A study of Macaca mulatta with 35 samples.

Results

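The comparison described here sets oocytes of the rhesus monkey (Macaca mulatta) against the cumulus cells that enclose them. It takes all 12 oocyte libraries and all 11 cumulus libraries, 23 of the 35 libraries of the series, chosen by the cell type and follicle size in their titles. The other 12 libraries, of granulosa cells from the follicle wall, took no part in the contrast and serve only as a further set of somatic cells. Oocytes were represented by 4 libraries from small, 4 from medium and 4 from large antral follicles, and cumulus cells by 3 from small, 4 from medium and 4 from large ones. All groups came from ovaries of adult females collected at necropsy, and the labels name no strain, genotype or agent. They give the sizes as small, medium and large, without a diameter. Their RNA was isolated by PicoPure columns and then amplified (Ovation RNA-Seq System v2). The labels do not tie libraries to an animal or a follicle, so the p-values measure the spread among these libraries, which may be partly technical.

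The oocyte is the germ cell of the follicle. During growth it accumulates and stores messenger RNA that supports meiosis and the early embryo after transcription has stopped. Cumulus cells are its closest somatic neighbours. They reach the oocyte surface through projections that cross the zona pellucida, pass small molecules to it through gap junctions and help to hold meiosis in arrest, while factors that the oocyte secretes, such as GDF9 and BMP15, act back on them. The files name transcripts by Ensembl ID only and pair none with a gene, so the levels of such markers were not assessed, no gene name is given and no sequence is shown.

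Oocyte libraries held 20780298 to 52350303 estimated counts (median 26297656) and cumulus libraries 25942122 to 31971313 (median 29280402). The range of depth in oocytes included that of cumulus cells. One oocyte library stood apart: in oocyte medium 2 a single transcript held 44.8% of counts, against 6.46% to 21.6% for the top transcript in the other oocyte libraries.

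Among cumulus libraries, 4 carried raised levels of transcripts typical of oocytes: small 1, small 2, medium 2 and large 3. The measure was a set of 85 transcripts at least 100-fold higher in oocytes than in granulosa cells, chosen without any cumulus value. These transcripts held 2.30% to 5.46% of counts in oocyte libraries. They held 0.175% in cumulus small 1, 0.134% in small 2, 0.212% in medium 2 and 0.246% in large 3, which is 2.97% to 5.45% of the oocyte mean. In the other 7 cumulus libraries they held 0.00347% to 0.0107%. Counts were present for 79 to 83 of the 85 transcripts in the 4 libraries and for 44 to 66 in the other 7. Granulosa libraries ranged from 0.0014% to 0.184%, the highest in granulosa large 1. In a bulk library, fewer cells of a type and less RNA per cell cannot be told apart. The 4 libraries fell in all 3 sizes, but 2 of them were among the only 3 cumulus libraries from small follicles. Results are therefore given with and without them.

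**Figure D1:**
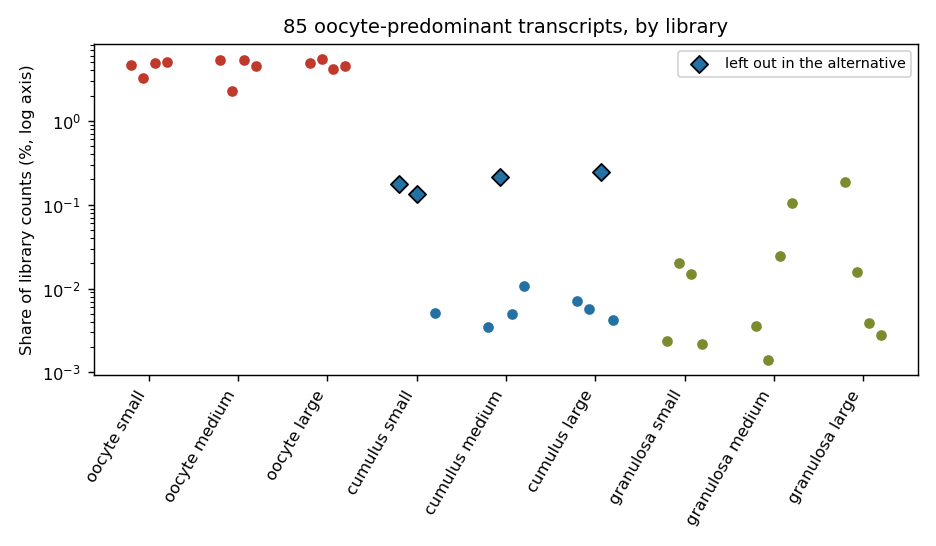
Share of library counts (percent, log axis) held by the 85 oocyte-predominant transcripts in each of the 35 libraries, by cell type and follicle size, with 1 point per library. The 4 cumulus libraries drawn as diamonds lie between 0.134% and 0.246%, the other 7 at or below 0.0107%, and every oocyte library at 2.30% or above.

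Most transcripts differed between oocytes and cumulus cells. Averaged over the 3 follicle sizes, 12249 of 36437 transcripts tested (33.6%) were higher in oocytes and 12526 (34.4%) were lower, so that 68.0% were called (edgeR quasi-likelihood test, adjusted p under 0.05). The split was nearly even, and the median log2 difference over all transcripts tested was -0.08. Both depend on the scaling, since TMM factors place the bulk of the differences near 0, and on the transcripts tested. With library totals alone the median was -0.25, with 11472 higher and 13226 lower. Among transcripts whose estimated counts were whole numbers it was 0.91, and 63.5% of those called were higher. Differences were large: 8183 of the higher transcripts (22.5% of those tested) and 8783 of the lower ones (24.1%) had a fitted difference of more than 4-fold. The median fitted log2 difference was 2.87 among higher and -2.65 among lower transcripts. No overlap between libraries was seen for 5280 transcripts with all oocyte values above (14.5%) and for 4231 with all oocyte values below (11.6%).

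The strongest differences leaned towards oocytes. On ratios of group means, with a group at or under 3 counts set to a floor of 3 counts over the group, 3433 called transcripts exceeded 16-fold in favour of oocytes and 1666 in favour of cumulus cells. Beyond 64-fold there were 1035 and 333, and beyond 256-fold 207 and 85, all out of 36437 transcripts tested. The higher transcripts were also more abundant, with a median level of 7.38 CPM over the 23 libraries against 2.69 CPM for the lower ones. This leaves more room above the floor, and its part in the lean towards oocytes was not tested. Of the called transcripts, 693 higher ones were at or under the floor in cumulus cells and 520 lower ones were at or under it in oocytes, so their ratios are lower bounds. Without the 4 cumulus libraries these numbers became 4087 and 1702, 1940 and 325, and 774 and 86. The number beyond 256-fold towards oocytes was 207 with the 4 libraries and 774 without them, while that towards cumulus cells was 85 and then 86. The 4 were left out because their oocyte transcripts were raised, so a shift in this direction follows from the choice and is no independent result.

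**Figure D2:**
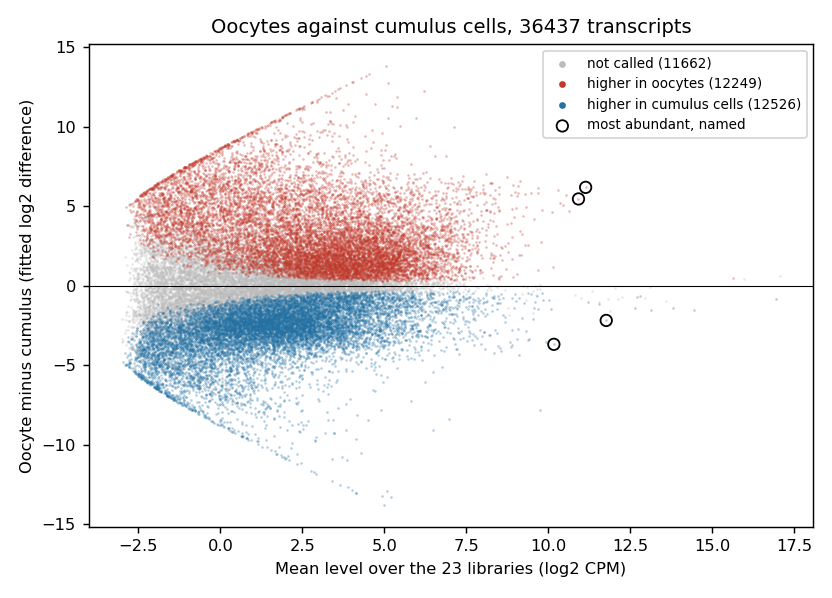
Fitted log2 difference, oocyte minus cumulus, against the mean level over the 23 libraries (log2 CPM), with 1 point per transcript tested. Red points are the 12249 transcripts called higher in oocytes, blue points the 12526 called lower, and circles mark the 4 abundant transcripts whose library values are described in the text.

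The called transcripts held a large share of the counts of the cell type in which they were high. The 12249 transcripts higher in oocytes held 49.8% ± 8.55 of oocyte counts (SD, n = 12) and 14.2% ± 1.27 of cumulus counts (SD, n = 11). In oocyte medium 2 they held 27.4%, the lowest of the oocyte libraries and still above every cumulus library, the highest of which stood at 15.9%. The 12526 transcripts lower in oocytes held 18.4% ± 1.94 of oocyte counts and 53.0% ± 1.69 of cumulus counts. These shares describe sets chosen from the same libraries and carry no test. Granulosa libraries, which did not choose the sets, held 10.96% ± 2.32 of their counts (SD, n = 12) in the first set and 63.7% ± 4.41 in the second. The range of group means over sizes was narrow: 47.9% to 52.0% of oocyte counts and 13.5% to 15.04% of cumulus counts for the higher set.

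**Figure D3:**
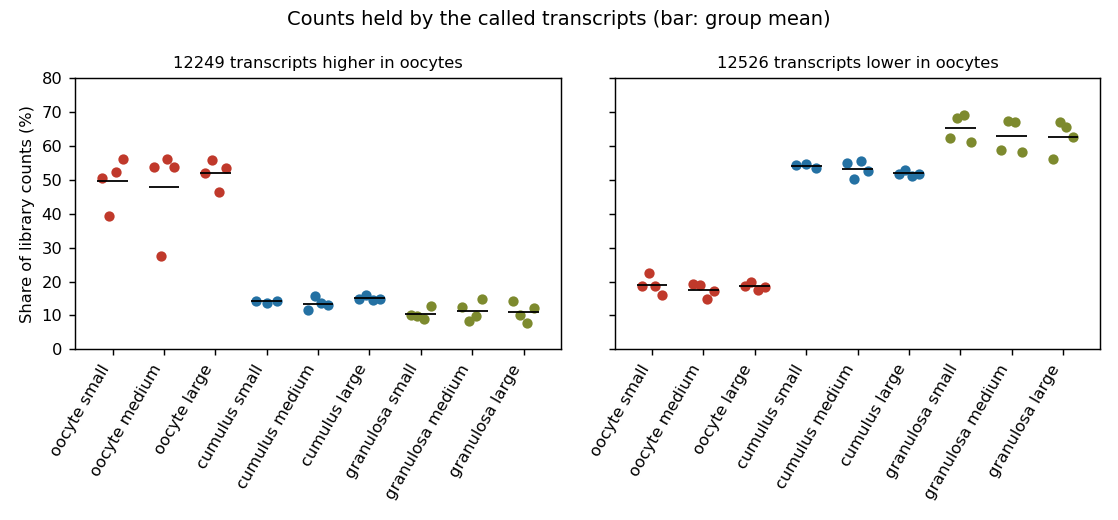
Percent of library counts held by transcripts called higher (left) and lower (right) in oocytes, 1 point per library and a bar at each group mean. Oocyte libraries lie between 27.4% and 56.2% on the left, where no cumulus library exceeds 15.9%, and granulosa libraries lie on the side of cumulus cells in both panels.

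The 10 most abundant transcripts were common to both cell types, and the lists separated further down. By mean TPM, which corrects for transcript length, the 10 highest transcripts of oocytes were the same 10 as in cumulus cells. They held 52.9% of oocyte TPM and 61.6% of cumulus TPM, and 6 of the 10 were called lower and 1 higher in oocytes. Of the 100 highest, 57 were shared. Among the 100 highest of oocytes 44 were called higher and 32 lower in oocytes, and among the 100 highest of cumulus cells 2 were higher and 70 lower. Over all transcripts tested 33.6% were higher and 34.4% lower. The lists were picked by level in a compared cell type, so these counts are a description. Of the 1000 highest, 432 were shared, 749 of the oocyte list were called higher and 145 lower in oocytes, and 199 of the cumulus list were higher and 616 lower. The 100 highest held 68.1% of TPM in oocytes and 82.1% in cumulus cells.

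The most abundant transcript that was more than 4-fold higher in oocytes, with no overlap between libraries, was ENSMMUT00000089566.1, 3334 bases long. Levels are given as CPM, counts per 1000000 of a library total that was first adjusted by its TMM factor. It ranged from 2397 to 6188 CPM in oocytes, with a median of 4523. In cumulus libraries it ranged from 3.16 to 214 CPM, with a median of 6.08. The high cumulus values were those of small 1 (190), small 2 (113), medium 2 (121) and large 3 (214), and the other 7 lay between 3.16 and 6.62 CPM. The fitted log2 difference was 6.19 (SE 0.96, edgeR, adjusted p = 1.33e-05), and 9.65 without the 4 libraries (edgeR, adjusted p = 4.15e-10). It was called in every size, with log2 differences of 5.31 in small, 7.10 in medium and 6.16 in large follicles.

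The next was ENSMMUT00000055283.2, 1002 bases long, at 2183 to 5608 CPM in oocytes (median 3743) and 2.90 to 271 CPM in cumulus cells (median 7.65). The same 4 cumulus libraries stood highest, at 210, 172, 216 and 271 CPM, and the other 7 at 13.2 CPM or below. The fitted log2 difference was 5.46 (SE 0.95, edgeR, adjusted p = 4.88e-05), and 8.96 without the 4 libraries (edgeR, adjusted p = 1.68e-08). By length-corrected level it was the 16th most abundant transcript of oocytes, at 5501 TPM, and stood at 98.1 TPM in cumulus cells. For both transcripts every oocyte library lay above every cumulus library.

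On the cumulus side the most abundant was ENSMMUT00000110400.1, 955 bases long, whose estimated counts were whole numbers in every library. It ranged from 996 to 2034 CPM in oocytes (median 1212) and from 2519 to 9871 CPM in cumulus cells (median 5561). Levels in cumulus cells were higher in each library, with means of 5878 ± 2408 CPM (SD, n = 11) against 1303 ± 339 CPM (SD, n = 12), a ratio of 4.51. The fitted log2 difference was -2.18 (SE 0.23, edgeR, adjusted p = 1.43e-07) and -1.80 without the 4 libraries, below the 4-fold line on which it was chosen. In granulosa cells it reached 5785 to 26137 CPM.

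ENSMMUT00000096624.1, 2576 bases long, ranged from 36.2 to 568 CPM in oocytes (median 125) and from 1265 to 2930 CPM in cumulus cells (median 2201). The highest oocyte libraries were small 2 (568) and medium 2 (538), while the other 10 libraries lay at 238 CPM or below. The fitted log2 difference was -3.68 (SE 0.42, edgeR, adjusted p = 2.72e-07), and no library of one cell type overlapped the other. Granulosa libraries ran from 109 to 2036 CPM, across the gap between oocytes and cumulus cells.

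Some transcripts had no count at all in one cell type. Of 49537 transcripts, 3942 were at 0 in all 23 libraries. Of the 6392 at 0 in all 11 cumulus libraries, 269 had a mean of 1 CPM or more in oocytes and 30 a mean of 10 CPM or more. Without the 4 cumulus libraries these numbers were 730 and 135, of 8222 at 0 in the other 7. A rise follows from the choice of the 4 and from the smaller number of libraries, so it is no independent result. Of the 7161 at 0 in all 12 oocyte libraries, 144 had a mean of 1 CPM or more in cumulus cells and 12 a mean of 10 CPM or more. Only 3 of the 269 and 1 of the 144 had whole estimated counts in every library. For the others a 0 can reflect how kallisto divided reads among transcripts of the same gene, so it does not show that the gene is silent. Floors and bounds here cover counting error only, because amplified copies are not independent molecules.

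The most abundant transcript at 0 in all cumulus libraries was ENSMMUT00000023002.4, 1524 bases long. It ranged from 42.2 to 80.6 CPM in oocytes (median 66.4) and was at 0 in every cumulus library, also in the 4 with raised oocyte transcripts, and in every granulosa library. Set against 3 counts over the cumulus group, it was at least 7247-fold higher in oocytes (edgeR, adjusted p = 2.31e-11). The reverse held for ENSMMUT00000002245.4, 2981 bases long, at 17.0 to 140 CPM in cumulus cells (median 58.9), 35.6 to 150 CPM in granulosa cells and 0 in every oocyte library. It was at least 7128-fold lower in oocytes (edgeR, adjusted p = 6.21e-09). Neither transcript had whole estimated counts in every library, so these bounds do not cover how reads were divided among transcripts.

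**Figure D4:**
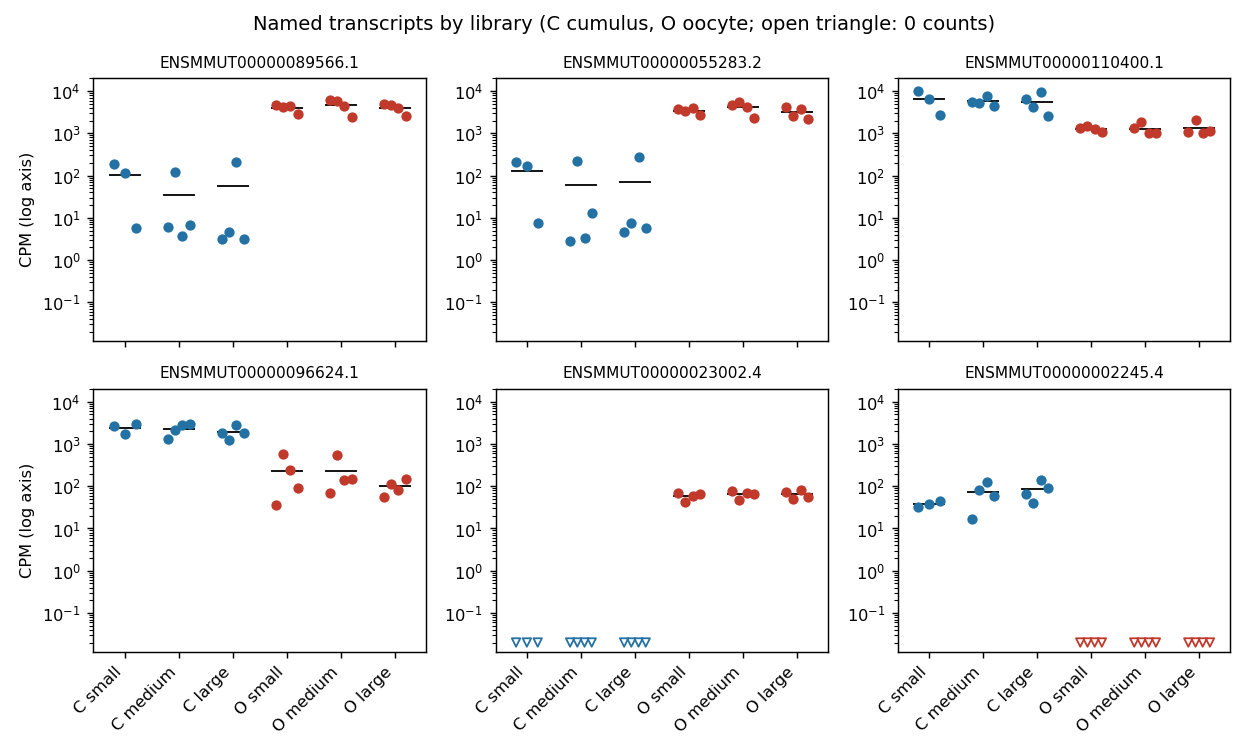
CPM (log axis) of 6 transcripts in each oocyte and cumulus library by follicle size, with bars at group means and open triangles for libraries at 0 counts. The 2 upper left transcripts show cumulus libraries split between values of 113 to 271 and values of 13.2 or below, and the last 2 are at 0 throughout 1 cell type.

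The contrast was also found within each follicle size. In small follicles 7104 transcripts were higher (19.5%) and 6734 lower (18.5%) in oocytes, together 38.0% of those tested. In medium follicles 8899 were higher (24.4%) and 7843 lower (21.5%), together 45.9%. In large follicles 8208 were higher (22.5%) and 6945 lower (19.1%), together 41.6% (edgeR quasi-likelihood test, adjusted p under 0.05). Small follicles had 3 cumulus libraries where the other sizes had 4. Called in all 3 sizes were 5942 higher transcripts (16.3%) and 4579 lower ones (12.6%), and 9 transcripts were called in opposite directions in a pair of sizes. Of the 12249 transcripts higher on average, 12061 (98.5%) had a positive difference in each size, and of the 12526 lower ones 12236 (97.7%) had a negative difference in each. These averages rest on the same libraries as the values within sizes.

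The differences in each size rest on different libraries, but the lists are not independent. All 23 libraries shared 1 fit, with its filter, scaling and estimates of spread. Fits of each size alone called 13373 of 30378 transcripts in small, 14358 of 28284 in medium and 11974 of 28382 in large follicles. The overlaps below are those of the shared fit. Medium follicles shared 6452 higher transcripts with small ones, 90.8% of the small list and 72.5% of the medium list, and 5567 lower ones, 82.7% and 71.0%. Medium and large follicles shared 7111 higher transcripts, 79.9% of the medium and 86.6% of the large list, and 5449 lower ones, 69.5% and 78.5%. Small and large follicles shared 6200 higher transcripts, 87.3% and 75.5%, and 5035 lower ones, 74.8% and 72.5%. The log2 differences of any pair of sizes had the same sign in 86.0% to 87.6% of the 36437 transcripts. Their Spearman correlation across transcripts was 0.797 to 0.820 and their Pearson correlation 0.720 to 0.751. These correlations are a description, since transcripts share libraries and are not independent replicates.

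**Figure D5:**
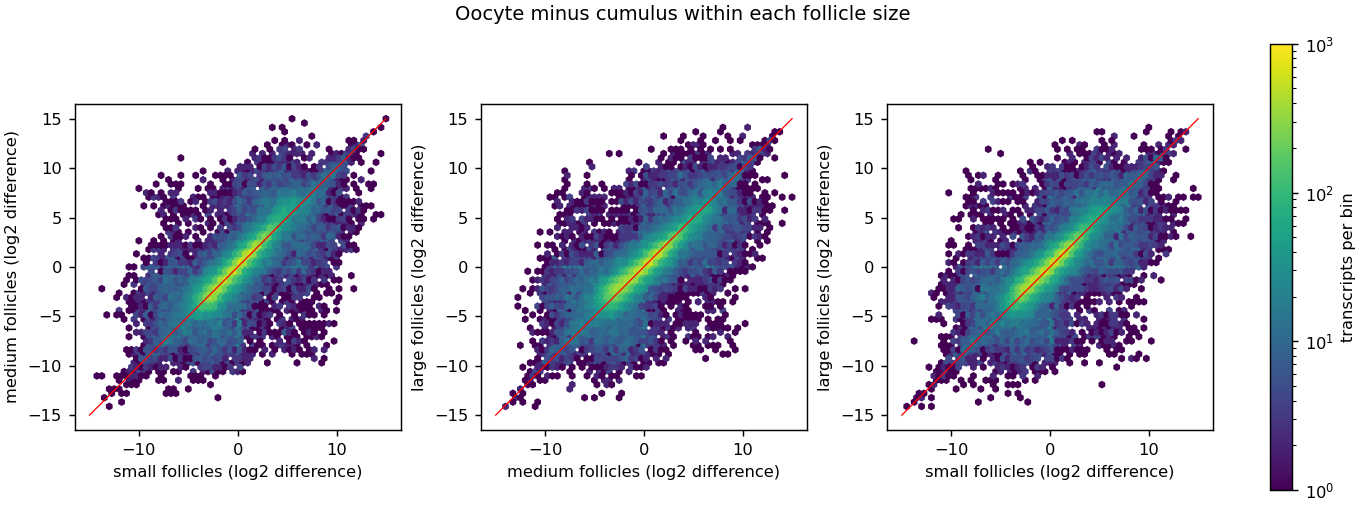
Log2 difference, oocyte minus cumulus, in 1 follicle size against another for the 36437 transcripts tested, binned, with colour for the number of transcripts per bin (log scale) and the line of equality in red. Most transcripts lie along the line, with Spearman correlations of 0.797 to 0.820, and scattered ones off it.

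In small follicles the smallest p among higher transcripts was that of ENSMMUT00000023002.4, described above, at 70.4, 42.2, 59.9 and 65.8 CPM in the 4 oocyte libraries and 0 in the 3 cumulus libraries. It was at least 1824-fold higher there, under the limit given above for its counts (edgeR, adjusted p = 2.35e-07). Among lower transcripts it was that of ENSMMUT00000096134.1, 5485 bases long, with whole counts. It stood at 1.96, 2.09, 2.03 and 3.35 CPM in oocytes and 229, 110 and 133 CPM in cumulus cells of small follicles (log2 difference -6.06, SE 0.36, edgeR, adjusted p = 1.11e-08). All oocyte libraries of every size lay at 3.35 CPM or below and all cumulus libraries at 79.8 or above. For this transcript the adjusted p was 1.38e-08 in medium and 4.17e-09 in large follicles (edgeR), smaller than for the lower transcripts named there. Those were chosen among transcripts not already named.

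In medium follicles ENSMMUT00000017195.4, 4337 bases long and with whole counts, stood at 93.7, 86.2, 103 and 95.5 CPM in oocytes and at 5.74, 9.36, 6.20 and 6.34 CPM in cumulus cells. The fitted log2 difference was 3.77 (SE 0.24, edgeR, adjusted p = 1.47e-08). The oocyte values were close together, from 86.2 to 135 CPM over all 12 libraries. ENSMMUT00000085734.1, 600 bases long, stood at 0.674, 1.12, 1.38 and 0.965 CPM in oocytes and at 68.2, 107, 49.6 and 65.7 CPM in cumulus cells (log2 difference -6.13, SE 0.43, edgeR, adjusted p = 3.87e-08).

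In large follicles ENSMMUT00000025702.4, 1582 bases long, stood at 41.2, 58.9, 48.3 and 47.2 CPM in oocytes and at 5.87, 4.52, 7.45 and 4.55 CPM in cumulus cells. The fitted log2 difference was 3.13 (SE 0.21, edgeR, adjusted p = 3.31e-08). ENSMMUT00000017195.4, already named for medium follicles, had a smaller adjusted p in large follicles (edgeR, adjusted p = 1.18e-08). ENSMMUT00000098634.1, 1548 bases long, stood at 4.84, 5.55, 3.84 and 4.36 CPM in oocytes and at 59.3, 40.3, 47.5 and 70.8 CPM in cumulus cells (log2 difference -3.55, SE 0.27, edgeR, adjusted p = 1.02e-07). For each of these 6 transcripts the oocyte and cumulus libraries did not overlap in any size, and each was called in the same direction in all 3 sizes. The 6 were picked for small p-values in the shared fit, so this is a description. Of all transcripts tested, 16.3% were called higher and 12.6% lower in all 3 sizes. No overlap over all libraries was seen for 14.5% with oocytes above and 11.6% with oocytes below.

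Whether the contrast itself changed with follicle size was tested with interaction terms. Between medium and small follicles 2 transcripts were called (0.00549%), between large and medium follicles 2 (0.00549%) and between large and small follicles 4 (0.011%, edgeR quasi-likelihood test, adjusted p under 0.05). They were 4 different transcripts. Without the 4 cumulus libraries with raised oocyte transcripts the counts were 25 (0.0626%), 13 (0.0326%) and 22 (0.0551%). At an unadjusted p under 0.05 there were 1750 (4.80%), 2253 (6.18%) and 1933 (5.31%) of the 36437 transcripts, where 5% is expected without any effect. DESeq2 called 486, 477 and 504. None of the 4 had whole counts in every library, and each was at 0 in all libraries of 1 group.

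ENSMMUT00000074243.2, 2831 bases long, was at 0 in the 4 oocyte libraries from small follicles and at 17.3, 12.8 and 7.73 CPM in cumulus cells there. It was thus at least 478-fold lower in these oocytes. In medium follicles it stood at 4.16, 1.42, 1.61 and 3.01 CPM in oocytes and 7.34 to 14.4 CPM in cumulus cells, and in large follicles at 0.729 to 3.18 and 7.54 to 22.4 CPM. The difference between oocytes and cumulus cells was larger in small than in medium follicles (edgeR, adjusted p = 0.00185) and in small than in large follicles (edgeR, adjusted p = 0.00586). Both calls were kept whichever of the 23 libraries was left out. Without the 4 cumulus libraries together, small follicles had 1 cumulus library, and the fitted differences were 8.92 and 8.25 against 9.49 and 8.72. Both calls were lost with all 35 libraries in the fit (edgeR, adjusted p = 0.897 and 0.619), where the fitted differences were 9.30 and 8.48. The second was also lost with limma (adjusted p = 0.0927).

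ENSMMUT00000096269.1, 2835 bases long, was at 0 in the 3 cumulus libraries from small follicles and at 10.2, 16.6, 8.68 and 7.72 CPM in oocytes there, at least 331-fold higher. In medium follicles it stood at 6.81 to 14.1 CPM in oocytes and 1.51 to 7.99 CPM in cumulus cells, and the size differences had adjusted p-values of 0.0451 against medium and 0.0365 against large follicles (edgeR). With libraries left out one at a time, the first of these calls was kept in 5 of 23 fits, those without cumulus medium 2, 3 or 4 or without oocyte large 2 or 4 (adjusted p from 0.0081 to 0.147 over the 23 fits). Its loss was also seen in a fit of all 35 libraries (edgeR, adjusted p = 0.932) and by limma (adjusted p = 0.232). Without the 4 cumulus libraries together, small follicles had 1 cumulus library, and the fitted difference was -9.98 against -9.66.

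ENSMMUT00000014833.4, 1423 bases long, was at 0 in the 4 cumulus libraries from large follicles and at 7.96, 9.38, 10.6 and 17.6 CPM in oocytes there, at least 490-fold higher. In medium follicles cumulus cells had 0.795, 1.84, 0.191 and 1.40 CPM (edgeR interaction term, adjusted p = 0.0206 for large minus medium and 0.0108 for large minus small follicles). The first call was lost without cumulus large 1, 3 or 4, oocyte medium 3 or 4, or oocyte large 3 (adjusted p from 0.00111 to 0.0757 over the 23 fits). Leaving out the 4 cumulus libraries together kept it (edgeR, adjusted p = 0.035). A fit of all 35 libraries (edgeR, adjusted p = 0.676) and limma (adjusted p = 0.188) did not.

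ENSMMUT00000060081.2, 1840 bases long, was at 0 in the 4 oocyte libraries from large follicles and at 3.97, 2.79, 2.13 and 3.52 CPM in cumulus cells there, at least 105-fold lower. In medium follicles it stood at 0.486 to 1.30 CPM in oocytes and 1.47 to 4.46 CPM in cumulus cells. The size differences had adjusted p-values of 0.0369 against medium and 0.0276 against small follicles (edgeR). With libraries left out one at a time, the call against medium follicles was kept only without cumulus small 2 or 3, cumulus medium 1, or oocyte medium 1 or 2 (adjusted p from 0.0174 to 0.11). The call against small follicles was lost without cumulus small 1, cumulus large 1 or 4, oocyte small 1, oocyte medium 4, or oocyte large 1 or 3 (adjusted p from 0.0162 to 0.093). Both calls were kept in a fit of all 35 libraries (edgeR, adjusted p = 0.00234 and 0.00223) and lost with library totals (edgeR, adjusted p = 0.0896 and 0.0518). Without the 4 cumulus libraries together the call against medium follicles was lost (edgeR, adjusted p = 0.0525, fitted difference -7.89 against -7.91). Against small follicles, which then had 1 cumulus library, the fitted difference was -10.13 against -8.27. The call against medium follicles was also lost with RLE factors (edgeR, adjusted p = 0.0689), limma (0.0701) and no filter (edgeR, adjusted p = 0.0701).

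Leaving out the 4 cumulus libraries kept the contrast. With the other 7 cumulus libraries 10385 transcripts were higher (26.0%) and 10902 lower (27.3%) in oocytes, together 53.3% of 39935 tested (edgeR quasi-likelihood test, adjusted p under 0.05). Of the 12249 higher transcripts 10015 (81.8%) were called higher again, and of 12520 lower ones tested 10528 (84.1%) were called lower again. No transcript was called the opposite way, and 21 lower ones changed sign without a call. Within small follicles 4168 were higher (10.4%) and 2833 lower (7.09%), together 17.5%. Within medium follicles 8067 were higher (20.2%) and 6577 lower (16.5%), together 36.7%. Within large follicles 7244 were higher (18.1%) and 5779 lower (14.5%), together 32.6%. The small follicles then had 1 cumulus library, which was assumed to vary like the other groups, and their total fell from 13838 to 7001.

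All 85 oocyte-predominant transcripts were called higher in oocytes than in cumulus cells, beside 33.6% of all transcripts tested. Their choice required high levels in oocytes, so this count describes them and is no independent result. The median ratio of oocyte to cumulus means was 62.9-fold with all cumulus libraries. It was 2871-fold without the 4, where 10 of the 85 were at or under the floor of 3 counts in cumulus cells. Leaving out libraries chosen for raised oocyte transcripts raises this ratio by itself. Within the 4 libraries the median transcript of the set stood at 3.44% of its median oocyte level in small 1, 1.86% in small 2, 4.29% in medium 2 and 6.13% in large 3. The order of the 85 levels followed that of oocytes with a Spearman correlation of 0.734, 0.584, 0.886 and 0.885 in these libraries, and of 0.327 to 0.544 in the other 7, across transcripts within a library. In the opposite direction, 4 transcripts were at least 100-fold higher in granulosa cells than in oocytes, and all 4 were called lower in oocytes than in cumulus cells, beside 34.4% of all transcripts tested. Their choice required low levels in oocytes, so this count too is a description. They held 0.0304% to 0.0922% of cumulus counts and at most 0.00562% of oocyte counts, in oocyte large 2.

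Measures of whole libraries also differed, without reference to any list of called transcripts. Counts were less concentrated in oocytes: the 100 most abundant transcripts of each library held 50.2% ± 9.30 of oocyte counts (SD, n = 12) and 64.2% ± 3.97 of cumulus counts (SD, n = 11). This difference passed a two-sided permutation test (p = 0.00056, adjusted p = 0.00672 over 24 tests). For the 10 most abundant the shares were 38.6% ± 11.4 and 49.8% ± 5.04 (permutation test, p = 0.0071, adjusted p = 0.0341). That difference was -9.83 percentage points without the 4 cumulus libraries, with p = 0.055 by an exact permutation test. For the single most abundant transcript they were 14.4% ± 10.4 and 16.9% ± 2.78, a difference that did not pass (permutation test, p = 0.52). Without oocyte medium 2 that last difference was -5.34 percentage points (permutation test, p = 0.0033).

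Oocyte counts lay in longer transcripts. Transcripts shorter than 1000 bases held 13.9% ± 1.58 of oocyte counts, from 11.7% to 16.04%, and 26.2% ± 3.14 of cumulus counts, from 20.9% to 30.8%. No library of one cell type overlapped the other (permutation test, p = 2e-05, the smallest these permutations can give, adjusted p = 0.00048). The most abundant of these short transcripts, ENSMMUT00000088746.1, 836 bases long and singled out after its values were seen, held 8.23% of oocyte and 16.9% of cumulus counts on average. Without it the shares were 6.14% ± 1.38 and 11.2% ± 1.94 (permutation test, p = 4e-05), and their ranges met, at 4.61% to 10.1% and 8.55% to 14.1%. The mean transcript length weighted by counts was 2684 ± 273 bases in oocytes and 2352 ± 141 in cumulus cells (permutation test, p = 0.0021, adjusted p = 0.0126). This mean was not recomputed without ENSMMUT00000088746.1. That transcript's 16.9% of cumulus counts is also the mean share of the single most abundant transcript there, so these library measures are not independent. Transcripts with 10 or more counts numbered 25933 ± 1446 in oocyte and 27466 ± 626 in cumulus libraries (permutation test, p = 0.0012, adjusted p = 0.0096). This number was not adjusted for depth, whose median was 26297656 counts in oocyte and 29280402 in cumulus libraries. The part of depth in the difference was not tested.

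None of these measures passed within a single size after adjustment, where the lowest adjusted p was 0.0773 by an exact permutation test. The exact test can go no lower than 0.029 for 4 against 4 libraries and 0.057 for 4 against 3. For the short transcripts the difference was -14.1 percentage points in small, -12.9 in medium and -10.5 in large follicles, and the libraries did not overlap in any size. The transcripts higher and lower in oocytes differed little in length themselves, with medians of 2415 and 2541 bases, and 8.35% and 6.63% of them were shorter than 1000 bases.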

How the data were processed

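Total RNA of 35 libraries was quantified by the authors with kallisto 0.44.0 after conversion with bcl2fastq 2.19.1, per the submitters' processing notes. The deposited estimated counts, whose unit is set by the file headers, divide a read that fits several transcripts among them, so they need not be whole. The deposited TPM values, made by the authors per the file headers, scale estimated counts by effective length and library total and were used only to rank levels. The build and annotation behind the index were not given in the sources used here. Of 49537 transcript IDs 0 matched the gene name table and 0 the RefSeq gene table, so tests were made per transcript.

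Estimated counts of the 23 oocyte and cumulus libraries were rounded. A total of 3942 transcripts were at 0 in all 23. For 8563 transcripts, with 28.7% of counts, estimates were whole in every library within 1e-06. One mean was fitted per cell type and size with edgeR 4.0.16 in R 4.3.3 (robust quasi-likelihood test, TMM factors, filterByExpr with a minimum count of 10, Benjamini-Hochberg adjustment and a threshold of 0.05 on the adjusted p), and the contrast averages the 3 sizes. Levels are CPM with TMM factors over the 23 libraries, or over 35 where granulosa cells are given. Predominant sets had median CPM at least 100-fold apart between oocytes and granulosa cells after adding 1 CPM, and at least 10 CPM in the higher type. Library measures were compared with two-sided permutation tests in Python 3.11.15 with scipy 1.17.1 (100000 resamples, or exact under 10 libraries in a group). Intervals and floors cover counting error only. Named transcripts were, for the average, the 2 per direction with the highest mean CPM among called transcripts over 4-fold without overlap. For each size they were the smallest p per direction among transcripts not already named (1 each, with 10 counts or more on average in the higher group). For each size difference they were the smallest p per direction, and for 0 in 1 cell type the highest mean CPM in the other. The contrast, the 4 libraries to leave out and the lists were chosen with earlier results of these data known.

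Libraries of the same group never agreed to within counting noise: the closest pair had a chi-square of 69.4 per degree of freedom. Alternatives were RLE factors, library totals, DESeq2 1.42.0, limma 3.58.1 with sample weights, no filter, all 35 libraries, fits per size, blocks by number, whole counts, an adjusted p under 0.01 and leaving out libraries. The fit was tested on simulated counts with 50 transcripts changed at each fold. For the averaged contrast (34888 transcripts) 20% were recovered at 2-fold, 64% at 4-fold, 76% at 8-fold and 90% at 16-fold, and within small follicles 0%, 16%, 40% and 50%. With only 200 transcripts changed, the adjusted threshold was stricter than in the data, so these rates hold for the simulated setting only.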

Additional observations from a re-analysis of the deposited data

Results flagged for a closer look

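In 117 groups of 4 libraries, 20 had 1 library far from the rest by Dixon's criterion (17.1%, where chance gives about 5%). Oocyte medium 2 stood out in several measures that share its composition. Its top transcript held 44.8% of counts, its top 10 held 68.3% and its top 100 held 75.2%, and its mean transcript length weighted by counts was 2011 bases. In the same library transcripts higher in oocytes held 27.4% of counts, and somatic-predominant transcripts 0.0027%, above the other medium oocyte libraries. Somatic-predominant transcripts were highest in oocyte large 2, at 0.00562% of counts.

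Oocyte-predominant transcripts held 0.246% of counts in cumulus large 3 and 0.212% in cumulus medium 2, far above the other libraries of these groups. The named oocyte transcripts followed: ENSMMUT00000089566.1 stood at 214 CPM in cumulus large 3 and 121 CPM in cumulus medium 2, and ENSMMUT00000055283.2 at 271 and 216 CPM. The other cumulus libraries with raised levels, small 1 and small 2, belong to a group of 3, to which the criterion was not applied.

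Single libraries also stood apart for other named transcripts. ENSMMUT00000017195.4 reached 9.36 CPM in cumulus medium 2 and 135 CPM in oocyte large 2. ENSMMUT00000025702.4 reached 53.2 CPM in oocyte medium 3, and ENSMMUT00000060081.2 reached 4.46 CPM in cumulus medium 1. ENSMMUT00000096134.1 reached 3.35 CPM in oocyte small 4, and ENSMMUT00000096624.1 reached 538 CPM in oocyte medium 2. ENSMMUT00000110400.1 reached 2034 CPM in oocyte large 2.

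The contrast differed between follicle sizes for 4 transcripts by edgeR's interaction test, as described above. The fitted differences of log2 differences, which are no bounds because a group was at 0 in each, were 9.49 (medium minus small) and 8.72 (large minus small) for ENSMMUT00000074243.2. For ENSMMUT00000096269.1 they were -9.66 (medium minus small) and -9.28 (large minus small). For ENSMMUT00000014833.4 they were 8.04 (large minus medium) and 8.12 (large minus small), and for ENSMMUT00000060081.2 they were -7.91 and -8.27.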

How the results depend on the processing

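The averaged count of 24775 called transcripts stayed within 1.5 times under every alternative except the restriction to transcripts with whole counts, which tests fewer transcripts (2711 called of 3239 tested, 63.5% of them higher against 49.4%; over 4-fold 1817; no overlap 1235). No transcript called in the average was called in the opposite direction under RLE factors, library totals, DESeq2, limma, no filter, 35 libraries, blocks or without the 4 cumulus libraries. Library totals alone moved the median log2 difference from -0.08 to -0.25, with 11472 higher and 13226 lower. Leaving out oocyte medium 2 and oocyte large 2 together, chosen after seeing the data, gave 25027. Within sizes, whole counts gave 1975 in small, 2243 in medium and 2147 in large follicles. Small follicles gave 7001 without the 4 cumulus libraries. In all 3 sizes 6251 were called without the 4 and 1657 on whole counts, against 10521. Leaving out 1 library gave 24154 to 25002 for the average, 10297 to 14884 in small, 14513 to 17653 in medium and 12770 to 15304 in large follicles, 16503 to 17266 over 4-fold, 8422 to 10952 in all 3 sizes and 9558 to 10814 without overlap.

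The few calls of size differences depended on the fit, and the cause was not tested. For medium minus small (2 calls) DESeq2 gave 486, 35 libraries 0, whole counts 0 and the fit without the 4 libraries 25. For large minus medium (2 calls) RLE factors, library totals, no filter and 35 libraries gave 1 each, DESeq2 477, limma 0, whole counts 0 and the fit without the 4 libraries 13. For large minus small (4 calls) DESeq2 gave 504, limma 1, 35 libraries 1, whole counts 0 and the fit without the 4 libraries 22. Leaving out 1 library gave 1 to 7, 0 to 4 and 2 to 7 calls. The transcripts named for the average, within sizes or for 0 counts in a cell type kept their calls in every alternative that tested them.

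Oocyte and cumulus libraries of the same size and number showed little joint deviation (11 pairs, correlations from -0.0598 to 0.0787), so the numbers were not taken as pairs. In 5 of the 11 pairs the same number gave the highest correlation within its size. Each cumulus library was compared with the 4 oocyte libraries of its size, so about 1 in 4 would do so without pairing. Correlations this small cannot show whether libraries share an animal. With number as a replicate block the size differences gave 1, 0 and 2 calls. With size and number as a replicate block they gave 0, 0 and 0, small follicles 8226 and all 3 sizes 6965. No other count moved by over 1.5 times under a block.

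Among library measures, the difference in the top 10 share was -9.83 percentage points without the 4 cumulus libraries (exact permutation test, p = 0.055). Leaving out 1 library gave differences of -5.34 to -1.85 percentage points for the top transcript, -13.9 to -9.69 for the top 10, -16.2 to -13.2 for the top 100 and -12.8 to -11.9 for short transcripts. The number of transcripts with 10 or more counts differed by -1697 to -1197 and mean length by 292 to 394 bases. Within sizes, simulated 4-fold changes were recovered for 16% to 26% of transcripts. Only 200 of 34888 simulated transcripts were changed, while 38.0% to 45.9% were called within sizes in the data. The adjusted threshold was therefore stricter in the simulation, and its recovery rates do not carry over to the data.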
